A study of Mus musculus with 16 samples.

Results

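The 9 genes described here were chosen by gene name from the 54532 genes of the count table, and they form 3 families: *Crem*, *Creb1* and *Atf1*, which encode the CREB-family transcription factors, *Crtc1*, *Crtc2* and *Crtc3*, which encode their coactivators, and *Sik1*, *Sik2* and *Sik3*, which encode the salt-inducible kinases. All 9 were found, and all 9 passed the filter on low counts in every comparison. Poly(A) RNA was sequenced from TCF1+CD8+ T cells that had been made in vitro within 4 days, by repeated activation, from naive CD8+ T cells of C57BL/6J spleens. The cells then received PGE2 (prostaglandin E2) at 100 ng/ml for 1 h or none, followed by 4 h in a low dose of IL-2 (85 U/ml) either alone, called unstimulated, or together with beads carrying antibodies to CD3 and CD28 at 1 bead per cell, called stimulated. Each of the 4 groups had 4 replicates, giving 16 samples, and the sources used here do not say whether mice were pooled or what replicates with one number have in common, so that p-values measure the spread between these samples, which may be technical. Every group, the unstimulated untreated cells included, shared the earlier rounds of bead activation and had IL-2 during the last hours, and the data describe a culture model rather than cells from a tumour.

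PGE2 binds the receptors EP2 and EP4 on T cells, which couple to adenylyl cyclase and raise cAMP. cAMP releases the catalytic subunits of protein kinase A, which phosphorylate CREB-family factors bound to the cAMP response element (CRE) in DNA. The same kinase phosphorylates the salt-inducible kinases, which otherwise phosphorylate the CRTC coactivators and hold them in the cytoplasm on 14-3-3 proteins. When the salt-inducible kinases are held inactive, dephosphorylated CRTCs enter the nucleus and join CREB on its target genes. *Crem* and *Sik1* are themselves textbook CREB targets, and their products are known to feed back on the pathway, *Crem* through short repressor forms called ICER. RNA levels do not show phosphorylation or location of these proteins, and in bulk samples fewer cells of a type and less RNA per cell cannot be told apart.

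Summed counts per sample lay between 22678254 and 42950763, and the 9 genes had between 209 and 9139 reads each in a sample, and replicates of a group differed by more than sampling noise (chi-square per degree of freedom between 8.46 and 56.8 over all genes). The 14 CD8 T cell markers, among them *Cd8a*, *Cd3e* and *Tcf7*, were all at a mean of 1 CPM (counts scaled to library size) or more. They were not all even over the samples, and *Tcf7*, the gene of TCF1, ranged from 106 to 566 FPKM. The 4 CD4 T cell markers summed to 5.27 to 7.67 FPKM (fragments scaled to gene length and library size), with *Cd4* itself at or below 0.450, and the myeloid and erythroid sums stayed at or below 5.40 and 0.669 FPKM. The sum of 6 B cell markers moved with the groups, at 364 to 428 FPKM in unstimulated untreated cells, 256 to 334 with PGE2, 128 to 140.0 in stimulated untreated cells and 113 to 132 in stimulated PGE2-treated cells. *Ighm* carried nearly all of that sum, while the B cell markers *Ms4a1* and *Pax5* did not exceed 0.141 and 0.102 FPKM. The sum of 5 natural killer markers moved as well, from 2.91 to 5.62 FPKM in unstimulated untreated cells and 1.39 to 2.74 with PGE2 to 25.2 to 41.8 and 8.52 to 29.8 in the stimulated groups, and *Eomes*, which activated CD8+ T cells also express, carried it, with *Ncr1* and *Klra8* at 0 in every sample. The part of these markers in the results below was not tested.

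RefSeq promoters on GRCm38.p6 were at hand for 6 of the 9 genes (*Atf1*, *Creb1*, *Crtc1*, *Crtc3*, *Sik2* and *Sik3*), and those of *Crem*, *Crtc2* and *Sik1* were not used here. In the 250 bases before the start, both strands were searched for the full CRE, TGACGTCA, and for its short form, TGACG, which every full CRE also holds. None of the 6 promoters held the full element, against 1.55% of 32851 promoters in the table, and *Atf1* and *Sik3* held the short form, against 17.8% of all promoters. The promoters of *Sik3* and *Sik2* are shown because *Sik3* rose with PGE2 and with stimulation while *Sik2* is the least expressed member, and the stretch before *Atf1* because it holds the other match. Capitals mark short forms, each sequence runs 5′ to 3′ on the strand of its gene, and the stretches are *Sik3* chr9:46012570-46012819 on the plus strand, *Sik2* chr9:51009074-51009323 on the minus strand and *Atf1* chr15:100227609-100227818 on the plus strand, all ending before the gene in the count table begins. The stretch of *Sik2* holds none.
Sik3: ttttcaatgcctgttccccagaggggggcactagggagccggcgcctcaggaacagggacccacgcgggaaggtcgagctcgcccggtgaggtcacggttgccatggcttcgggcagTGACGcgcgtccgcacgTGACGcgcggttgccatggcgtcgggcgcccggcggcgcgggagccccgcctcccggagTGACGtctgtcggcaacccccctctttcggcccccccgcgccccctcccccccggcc
Sik2: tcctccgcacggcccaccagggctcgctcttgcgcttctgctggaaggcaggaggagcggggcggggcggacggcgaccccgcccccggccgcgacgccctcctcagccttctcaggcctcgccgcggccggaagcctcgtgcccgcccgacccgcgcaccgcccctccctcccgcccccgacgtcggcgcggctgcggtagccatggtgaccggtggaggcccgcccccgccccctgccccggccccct
Atf1: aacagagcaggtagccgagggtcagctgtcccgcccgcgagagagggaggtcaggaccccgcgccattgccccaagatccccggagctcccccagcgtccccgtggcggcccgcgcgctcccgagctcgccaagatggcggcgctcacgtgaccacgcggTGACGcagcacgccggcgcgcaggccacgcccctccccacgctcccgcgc
The 3 short forms of *Sik3* begin at −133, −116 and −57 counted from the RefSeq start, and that of *Atf1* begins at −90. For *Atf1* the RefSeq start lies past the start of the gene in the count table. Of the 250 bases searched there, only the first 210 are therefore printed, and −90 is not counted from the end of the printed stretch. A match is a description of letters and not a measured binding site.

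The question put to the first comparison was how PGE2 changes these genes in cells without a new stimulus. With PGE2 alone, 4 of the 9 genes changed at an adjusted p below 0.05 (edgeR quasi-likelihood test, Benjamini-Hochberg over 14505 genes), against 28.4% of all genes tested. Of these, 3 were higher, *Crem*, *Sik1* and *Sik3*, against 12.9% of all genes, and *Creb1* was lower, against 15.5%. A single member, *Crem*, also passed a fold change of 2 and is called a differentially expressed gene (DEG), as 3.38% of all genes did. The 2 groups of 4 samples did not overlap for 3 of the 9 genes, *Crem*, *Sik1* and *Sik3*, against 28.9% of all genes. With 9 genes, the distance of these counts from the shares over all genes was not tested.

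In stimulated cells PGE2 changed 2 of the 9 genes, *Crem* and *Sik1*, against 9.84% of 13922 genes tested. Both were higher (6.04% of all genes were higher and 3.8% lower), *Crem* was again the DEG among them (1.75% of all genes), and these 2 genes were the ones whose groups did not overlap (17.9% of all genes). Same-numbered replicates deviated together in both PGE2 comparisons, and with the replicate number as a block the counts became 6 of 9 in unstimulated cells, where 47.8% of all genes were then called, and 4 of 9 in stimulated cells, where 39.8% were called. *Crtc2* and *Sik2* were added in unstimulated cells and *Atf1* and *Sik3* in stimulated cells. Taken as a ratio to the calls without the block, where the shares over all genes were 28.4% and 9.84%, those over all genes rose more than those of the members in both states.

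**Figure D1:**
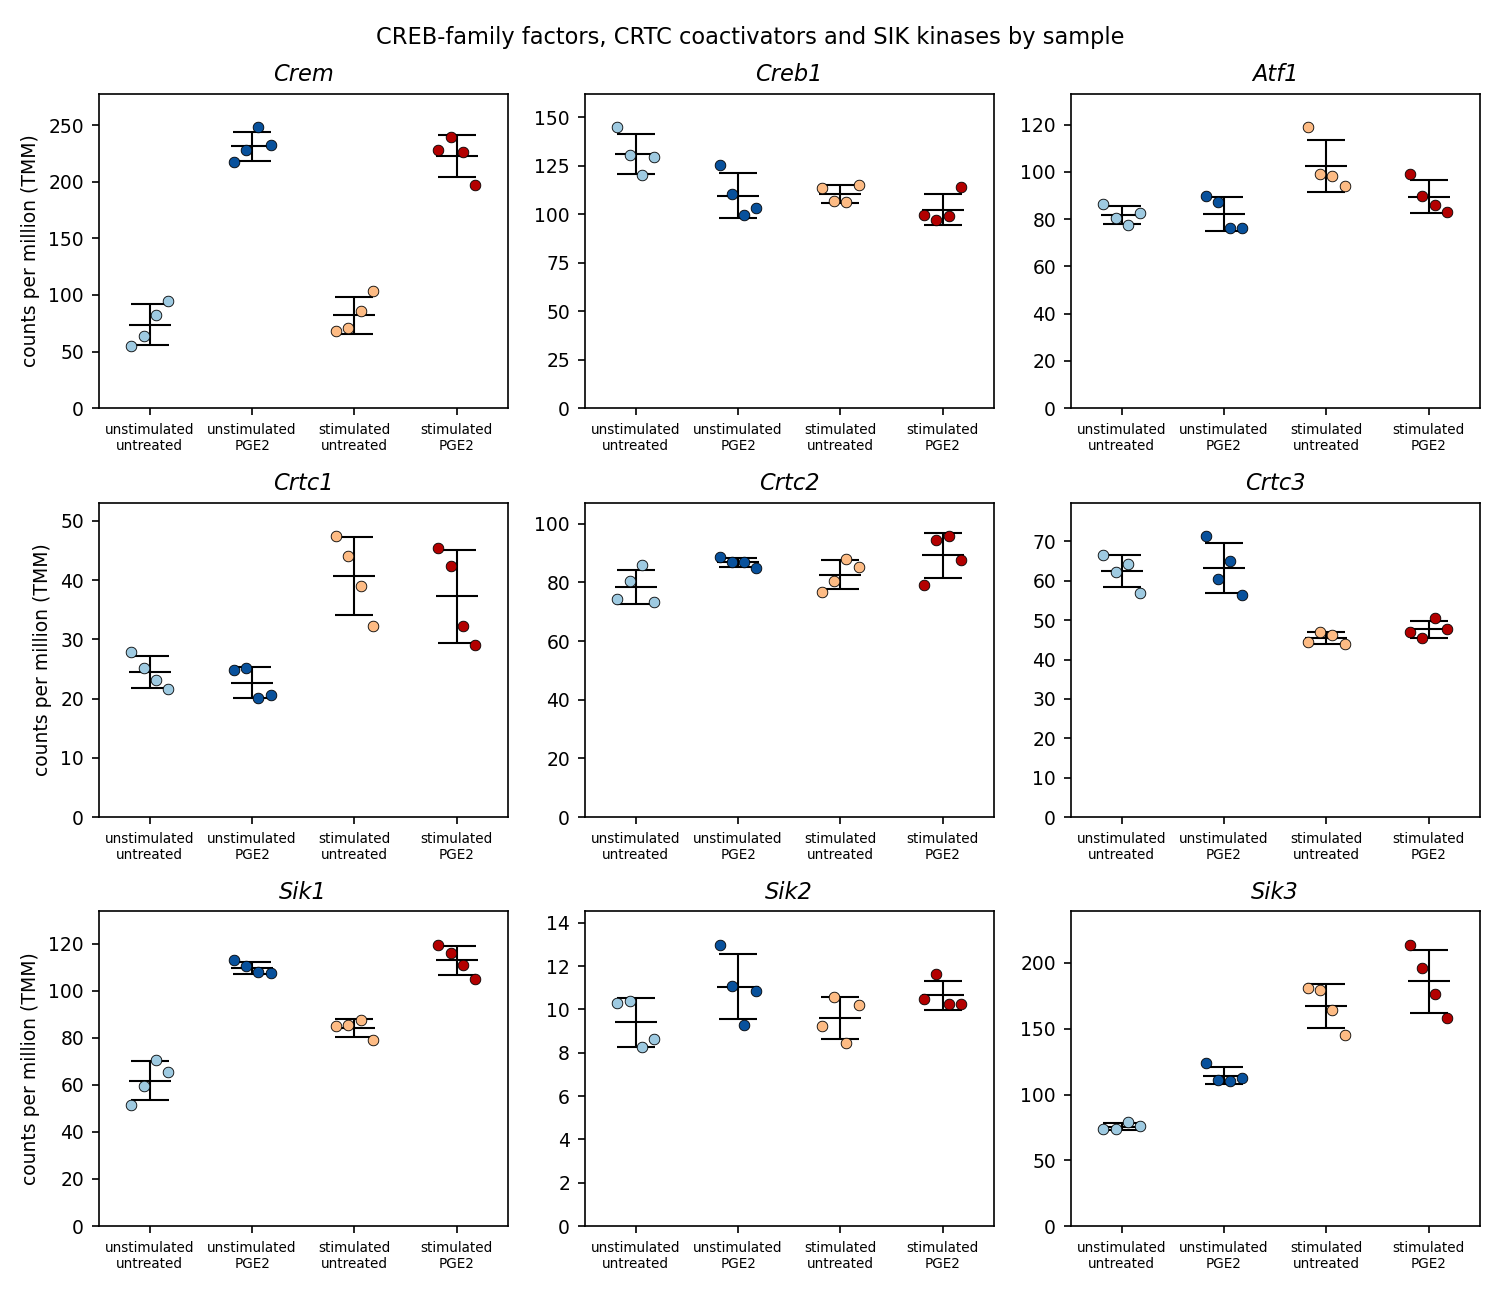
CPM, scaled by TMM factors, of the 9 genes in each of the 16 samples, with the mean and s.d. of the 4 replicates of a group (horizontal bars and whiskers), each panel on its own axis from 0. *Crem* lies at 54.4 to 94.8 in unstimulated untreated cells and 218 to 248 with PGE2, and *Sik3* lies at 73.7 to 79.1 in unstimulated and 145 to 181 in stimulated untreated cells.

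*Crem*, which encodes both activator and repressor forms of the CRE modulator, lies on the minus strand of chromosome 18, 3266048 to 3337748 (GRCm38). In unstimulated untreated cells it stood at 54.4, 63.7, 81.9 and 94.8 CPM in replicates 1 to 4. With PGE2 it stood at 218, 228, 248 and 233 CPM. The 4 PGE2-treated samples were all above 200 CPM and the untreated ones below 100, so the lowest treated sample was still more than 2 times the highest untreated one. The fitted log2 fold change was 1.67 ± 0.15 (s.e.), a fold change of 3.18, with an adjusted p of 1.81e-05 (edgeR), and *Crem* ranked 151 by p of 14505 genes.

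After stimulation without PGE2, *Crem* was at 67.7, 70.7, 85.9 and 103 CPM, and with PGE2 at 228, 239.9, 226 and 197 CPM. Again the groups were far apart, with a log2 fold change of 1.45 ± 0.13 (fold change 2.73, adjusted p 3.03e-04, edgeR), and here *Crem* ranked 33 of 13922 genes. Between same-numbered replicates the fold was 2.45 to 4.00 in unstimulated and 1.90 to 3.39 in stimulated cells. In unstimulated cells the untreated samples spread more than the treated ones, with 73.7 ± 18.1 (mean ± s.d., n = 4) against 232 ± 12.8 CPM.

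Stimulation itself left *Crem* within the spread of the replicates. *Crem* was nonetheless higher with stimulation without PGE2 in all 4 same-numbered pairs, by 1.05 to 1.24 times. The replicate block gave a log2 difference of 0.15 ± 0.06 there, which did not pass (adjusted p 0.0589, edgeR). Without PGE2 its log2 difference between stimulated and unstimulated cells was 0.13 with a 95% interval of −0.23 to 0.49 (adjusted p 0.512, edgeR), and with PGE2 it was −0.04 with an interval of −0.23 to 0.15 (adjusted p 0.683, edgeR). In order, the group means ran from unstimulated untreated and stimulated untreated, which overlapped, to stimulated with PGE2 and unstimulated with PGE2, which also overlapped. Set directly against each other, PGE2 alone gave 2.88 times the *Crem* level of stimulation alone (log2 1.53 ± 0.12, adjusted p 1.54e-07, edgeR). The PGE2 effect in stimulated cells minus that in unstimulated cells was −0.21 on the log2 scale (95% interval −0.64 to 0.23, adjusted p 0.891, edgeR), so no difference in the *Crem* response between the states was shown.

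GENCODE M21 lists 39 *Crem* transcripts, 7 of which start more than 50 kb inside the gene, and the ICER forms are known to begin at a promoter inside the gene. The counts sum over the whole gene, so activator and repressor forms could not be told apart. Exon bases that *Crem* shares with *Gm6225* on the opposite strand make up 8.01% of its exon bases, and *Gm6225* reached at most 2.39 CPM.

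*Creb1*, the CREB protein itself, lies on chromosome 1, 64532645 to 64604548 and was the gene that fell with PGE2 alone. It went from 145, 130.4, 120.0 and 129.5 CPM in unstimulated untreated cells to 125, 110.2, 99.5 and 103 CPM with PGE2. The groups overlapped, although each PGE2-treated sample was below the untreated sample of its number, and the log2 fold change was −0.24 ± 0.07 (adjusted p 0.0282, edgeR). This call was lost when any 1 of 5 libraries was left out, untreated replicate 1 or 2 or PGE2-treated replicate 2, 3 or 4, with adjusted p values between 0.0681 and 0.0985, and in limma on FPKM. In stimulated cells *Creb1* was at 113, 107, 106 and 115 CPM without and 99.4, 96.9, 99.1 and 114 CPM with PGE2, a log2 difference of −0.10 that did not pass the test (adjusted p 0.358, edgeR). Stimulation without PGE2 lowered *Creb1* with a log2 fold change of −0.26 ± 0.07 (adjusted p 0.00488, edgeR), and those groups did not overlap. With PGE2 present the same difference was −0.08 (95% interval −0.26 to 0.09) and did not pass.

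*Atf1*, a close relative of CREB that binds the same element, lies on chromosome 15, 100227819 to 100261244. It stood at 86.4, 80.3, 77.6 and 82.6 CPM in unstimulated untreated cells and 90.0, 87.1, 76.1 and 76.2 CPM with PGE2, which overlapped (log2 0.03, 95% interval −0.11 to 0.17). After stimulation it was at 119, 99.1, 98.2 and 94.1 CPM without and 99.0, 89.7, 86.2 and 82.8 CPM with PGE2. Stimulation without PGE2 raised *Atf1* by 0.32 ± 0.09 on the log2 scale (adjusted p 0.00529, edgeR), with no overlap, and had 0.14 (95% interval −0.05 to 0.32) in its presence. In stimulated cells *Atf1* was lower with PGE2 in all 4 same-numbered pairs, 0.833 to 0.906 times the untreated level, and the log2 difference of −0.19 had an adjusted p of 0.184 without and 0.00315 with the replicate block (edgeR).

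Per length, *Crem* and *Atf1* changed places with PGE2, and *Creb1* stayed the lowest of the 3. Levels between genes are compared here in FPKM, which divides the count by the gene length. That length covers all annotated exon bases, 5895 for *Crem*, 13742 for *Creb1* and 3060 for *Atf1*. The transcripts present may be shorter, so the order rests on these lengths. In CPM, *Creb1* was instead the highest of the 3 in unstimulated untreated cells, at a mean of 131 against 81.7 for *Atf1* and 73.7 for *Crem*. Untreated unstimulated cells held *Atf1* at 25.4 ± 1.24, *Crem* at 11.9 ± 2.87 and *Creb1* at 9.08 ± 0.747 FPKM (mean ± s.d., n = 4), so *Atf1* led. With PGE2, *Crem* led at 37.8 ± 2.17 FPKM against 25.9 ± 2.32 for *Atf1* and 7.68 ± 0.808 for *Creb1*. *Crem* thereby went from 25.5% ± 5.25 of the summed FPKM of the 3 genes to 53.0% ± 3.49 in unstimulated cells, and from 25.1% ± 4.90 to 50.7% ± 2.03 in stimulated cells. The share of *Atf1* went from 54.9% ± 3.35 to 36.3% ± 2.59 and from 60.4% ± 5.08 to 39.2% ± 1.52 in the same comparisons. The summed level itself was 46.4 ± 2.36 FPKM in unstimulated untreated and 71.4 ± 1.89 FPKM in unstimulated PGE2-treated cells, and the gain had the size of that of *Crem*. These shares are a description and were not tested.

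**Figure D2:**
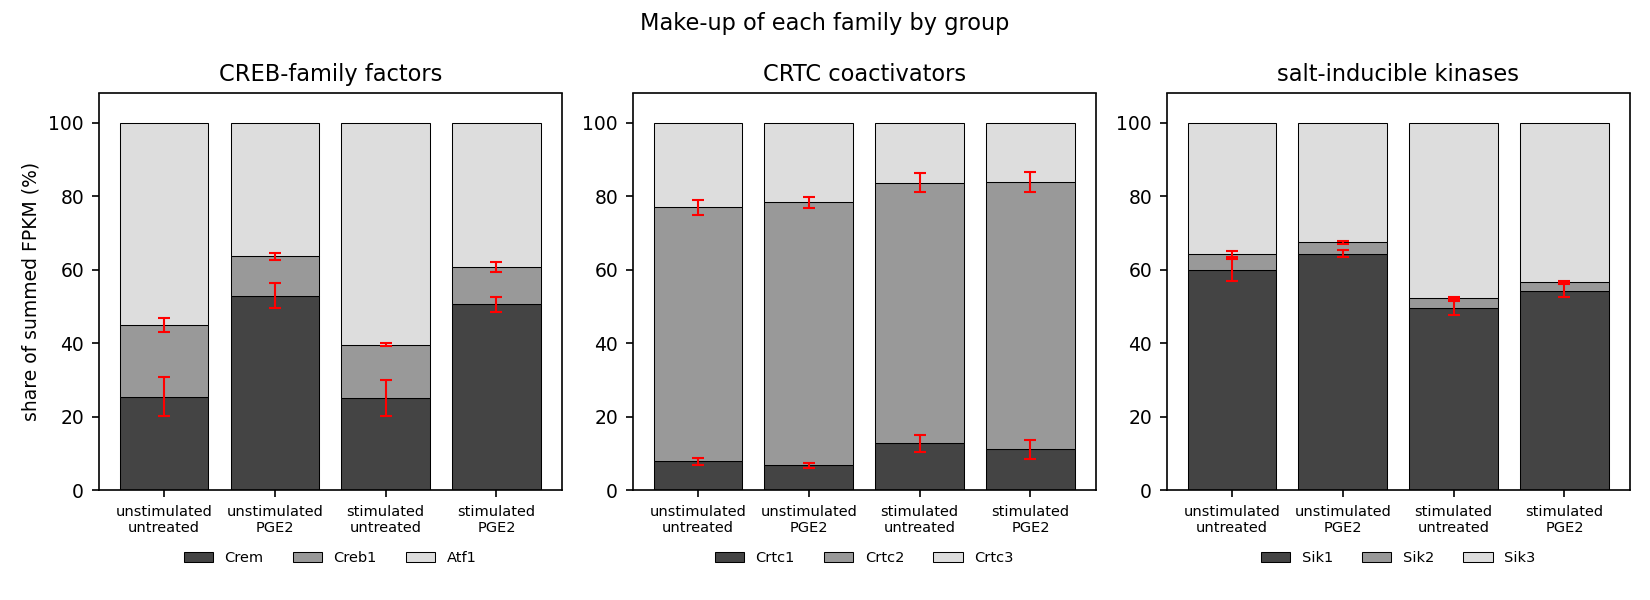
Mean share (%) of each gene in the summed FPKM of its family, by group, with red whiskers giving the s.d. of the share of the gene whose top edge they sit on (4 samples a group). *Crem* takes 25.5% ± 5.25 in unstimulated untreated cells and 53.0% ± 3.49 with PGE2, and *Crtc2* stays near 70% of its family in all groups.

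The CRTC coactivators bind the CREB-family factors and recruit the transcription machinery. None of the 3 passed the test with PGE2 in either state, and of the 3 genes *Crtc2* came nearest. *Crtc2* (chromosome 3, 90254163 to 90264125) stood at 74.3, 80.3, 85.9 and 73.2 CPM in unstimulated untreated cells and 88.7, 86.8, 86.9 and 84.9 CPM with PGE2. It was higher with PGE2 in all 4 same-numbered pairs, by 1.01 to 1.19 times, yet the groups overlapped and the log2 fold change of 0.17 ± 0.06 had an adjusted p of 0.068 without and 0.00236 with the replicate block (edgeR). Leaving out untreated replicate 3, the highest of its group, also brought it under the threshold, with an adjusted p of 0.0203 (edgeR), and DESeq2 on all 8 samples called it at an adjusted p of 0.0477. In stimulated cells it was at 76.8, 80.4, 87.9 and 85.3 CPM without and 79.0, 94.4, 95.7 and 87.7 CPM with PGE2, again higher in all 4 pairs, with a log2 difference of 0.12 (95% interval −0.06 to 0.30). Stimulation gave *Crtc2* differences of 0.06 without and 0.05 with PGE2, whose signs turned with upper-quartile scaling.

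*Crtc1* and *Crtc3* moved in opposite directions with stimulation. *Crtc1* (chromosome 8, 70382355 to 70439579) stood at 27.9, 25.1, 23.1 and 21.6 CPM in unstimulated untreated cells and 47.4, 44.0, 39.0 and 32.2 CPM in stimulated untreated cells. The groups did not overlap, and the log2 fold change was 0.73 ± 0.12 (adjusted p 2.05e-04, edgeR). With PGE2 present it went from 24.8, 25.1, 20.1 and 20.6 to 45.4, 42.4, 32.3 and 29.0 CPM, a log2 fold change of 0.74 ± 0.15 (adjusted p 0.00133, edgeR). *Crtc3* (chromosome 7, 80586627 to 80688877) fell instead, from 66.6, 62.1, 64.4 and 57.0 CPM to 44.5, 47.0, 46.2 and 43.9 CPM without PGE2. Its log2 fold change was −0.47 ± 0.07 without PGE2 (adjusted p 6.70e-05, edgeR) and −0.39 ± 0.08 with it (adjusted p 0.00133, edgeR), where it went from 71.3, 60.4, 65.0 and 56.4 to 46.9, 45.5, 50.6 and 47.8 CPM.

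The PGE2 intervals of these 2 genes were narrow for *Crtc3* and wider for *Crtc1*. *Crtc3* differed by 0.04 (95% interval −0.13 to 0.20) in unstimulated and 0.08 (−0.06 to 0.22) in stimulated cells on the log2 scale. *Crtc1* differed by −0.09 (−0.30 to 0.12) and −0.12 (−0.47 to 0.23). Per length, *Crtc2* was the main CRTC transcript throughout, at 69.2% ± 2.03 of the summed FPKM of the 3 genes in unstimulated untreated, 71.6% ± 1.49 in unstimulated PGE2-treated, 70.9% ± 2.69 in stimulated untreated and 72.6% ± 2.71 in stimulated PGE2-treated cells. Within the remainder, *Crtc1* went from 7.90% ± 0.896 to 12.8% ± 2.29 and *Crtc3* from 22.9% ± 1.17 to 16.2% ± 0.501 with stimulation. The summed CRTC level lay between 26.3 ± 1.56 and 28.6 ± 1.23 FPKM over the 4 group means. The shares rest on gene lengths of 4094 bases for *Crtc2*, 11182 for *Crtc1* and 9850 for *Crtc3*. In CPM, the means in unstimulated untreated cells were 78.4 for *Crtc2*, 62.5 for *Crtc3* and 24.4 for *Crtc1*.

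*Sik1*, the salt-inducible kinase known for rapid induction by cAMP, lies on the minus strand of chromosome 17, 31844248 to 31855792. It was at 51.3, 59.7, 70.8 and 65.6 CPM in unstimulated untreated cells and 113, 110.4, 108 and 108 CPM with PGE2. The treated samples lay within 6 CPM of each other and far above the untreated ones, and the log2 fold change was 0.85 ± 0.09 (fold change 1.80, adjusted p 4.96e-05, edgeR). In stimulated cells it stood at 84.9, 85.3, 87.6 and 78.9 CPM without and 119, 116, 111 and 105 CPM with PGE2. The groups again did not overlap, with a log2 fold change of 0.43 ± 0.06 (fold change 1.35, adjusted p 0.00328, edgeR).

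Unlike *Crem*, *Sik1* also passed the test for stimulation when PGE2 was absent, rising by 0.43 ± 0.10 on the log2 scale (adjusted p 0.00175, edgeR). With PGE2 present the difference between stimulated and unstimulated cells was 0.06 (95% interval −0.09 to 0.21, adjusted p 0.487, edgeR). Both PGE2-treated groups thus lay in overlapping ranges, 108 to 113 and 105 to 119 CPM, from different untreated levels. The means ran in the order unstimulated untreated, stimulated untreated, unstimulated with PGE2 and stimulated with PGE2, and the last 2 did not differ beyond their spread. PGE2 alone gave 1.33 times the level of stimulation alone (adjusted p 7.32e-05, edgeR).

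*Sik3*, the kinase whose loss is known to affect growth and metabolism, lies on the plus strand of chromosome 9, 46012820 to 46224194 and had the largest fold change of the 9 genes with stimulation alone. It was at 73.7, 73.7, 79.1 and 76.1 CPM in unstimulated untreated cells and at 181, 179.6, 164 and 145 CPM after stimulation. That is a log2 fold change of 1.13 ± 0.09 (fold change 2.19, adjusted p 2.17e-07, edgeR). With PGE2 alone *Sik3* stood at 124, 111, 111 and 112 CPM, between those groups and without overlap with either, a log2 fold change of 0.62 ± 0.05 over untreated cells (adjusted p 1.38e-05, edgeR).

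Stimulated PGE2-treated cells held *Sik3* at 214, 196, 177 and 158 CPM. This range overlapped that of stimulated untreated cells, and the log2 difference of 0.16 had a 95% interval of −0.07 to 0.39 and an adjusted p of 0.343 (edgeR). Within same-numbered pairs, however, *Sik3* was higher with PGE2 in 4 of 4, by 1.08 to 1.18 times, and with the replicate block the adjusted p was 0.0157 (edgeR). Stimulation in the presence of PGE2 raised *Sik3* by 0.72 ± 0.10 on the log2 scale (adjusted p 8.80e-05, edgeR). With PGE2 alone set against stimulation alone, *Sik3* was lower by 0.52 on the log2 scale (adjusted p 9.56e-05, edgeR).

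*Sik2* (chromosome 9, 50892801 to 51009073) was the least expressed member per length, with 0.937 ± 0.115 FPKM in unstimulated untreated cells. It stood at 10.3, 10.4, 8.25 and 8.64 CPM in unstimulated untreated cells and 13.0, 11.1, 9.28 and 10.8 CPM with PGE2. The groups overlapped, each treated sample was above its same-numbered control, and the log2 fold change of 0.25 ± 0.12 had an adjusted p of 0.133 without and 0.0147 with the replicate block (edgeR). In stimulated cells it stood at 9.24, 10.6, 8.44 and 10.2 CPM without and 10.5, 11.6, 10.3 and 10.3 CPM with PGE2, with a log2 difference of 0.15 (95% interval −0.08 to 0.39). Of its exon bases, 15.0% are shared with *Ppp2r1b* on the opposite strand, which reached 108.5 CPM, and whether the counting used strand is not stated, so that part of the *Sik2* count is uncertain. Stimulation gave 0.02 without and −0.03 with PGE2 on the log2 scale, and neither passed the test.

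Per length, the summed salt-inducible kinase level was 21.7 ± 1.80 FPKM in unstimulated untreated cells, 36.4 ± 1.34 with PGE2, 35.8 ± 2.94 after stimulation and 43.8 ± 4.21 with both. PGE2 alone and stimulation alone had sums of like size, with *Sik1* and *Sik3* in different proportions. *Sik1* held 64.4% ± 0.945 of the sum in unstimulated PGE2-treated cells and 49.6% ± 1.85 in stimulated untreated cells, and *Sik3* 32.5% ± 0.722 and 47.7% ± 1.94. The gene length of *Sik1* behind its FPKM is 4511 bases, against 5133 exon bases in GENCODE M21. With the longer length and the same counts, its shares would be lower. In stimulated untreated cells *Sik1*, at 17.8 ± 0.977 FPKM with the shorter length, would then lie below *Sik3*, at 17.1 ± 2.05 FPKM. The lead of *Sik1* in that group therefore depends on the length used. *Sik2* stayed at or below 5.31% in every sample.

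**Figure D3:**
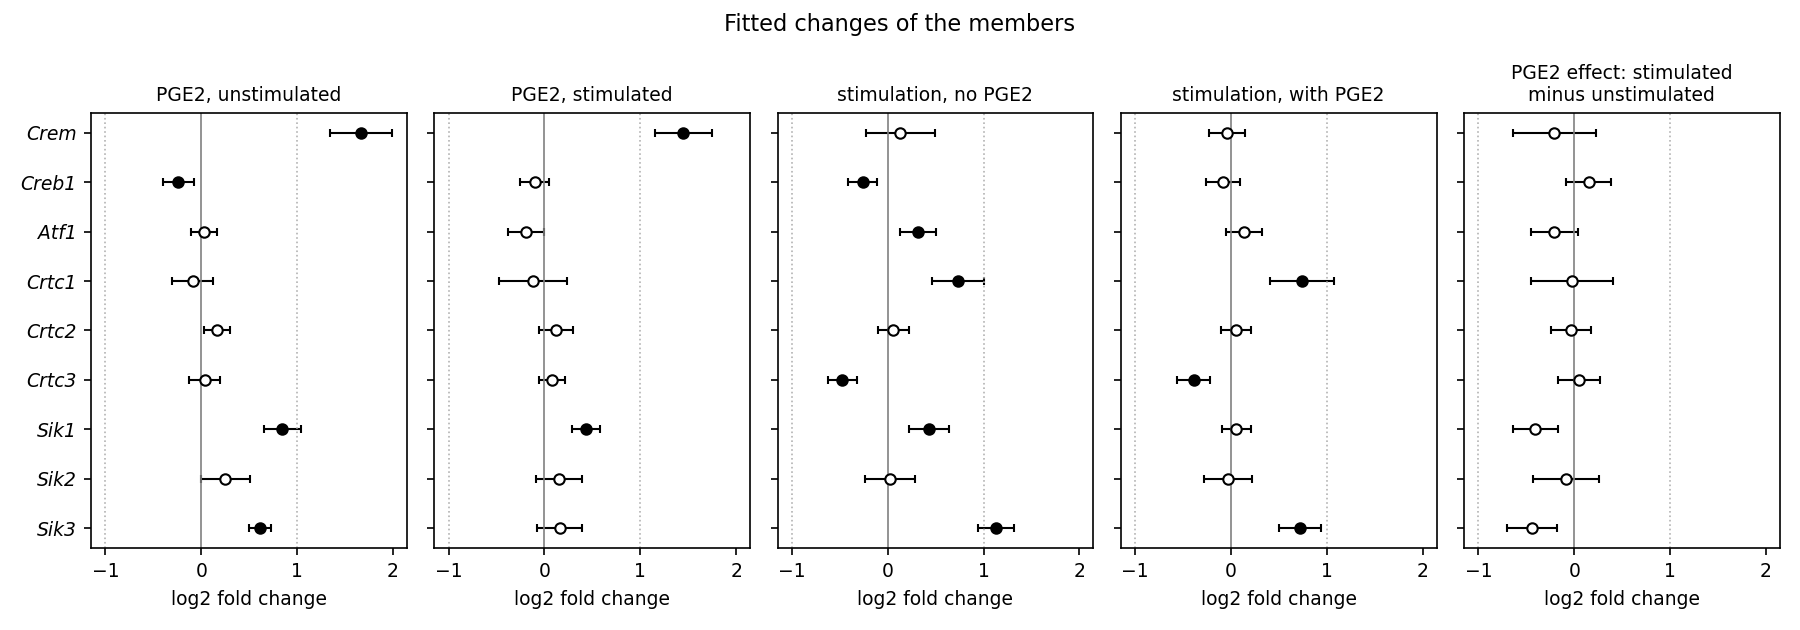
Fitted log2 fold changes of the 9 genes (points) with 95% intervals (bars) for PGE2 in unstimulated and in stimulated cells, for stimulation without and with PGE2, and for the difference of the PGE2 effects, where filled points have an adjusted p below 0.05 and dotted lines mark a fold change of 2. *Crem* is filled and beyond the line with PGE2 in both states and near 0 with stimulation, whereas *Sik3* is beyond the line with stimulation without PGE2, and no point is filled in the last panel.

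The comparison of stimulated with unstimulated cells, which asks what restimulation does in the absence and presence of PGE2, called most of all genes tested. Without PGE2, 6 of the 9 genes changed, against 66.5% of 14205 genes, 4 of them higher (31.7% of all genes) and 2 lower (34.8%). A single one was a DEG, *Sik3* (23.2% of all genes), and groups did not overlap for 6 of 9 (61.6%). With PGE2, 3 of 9 changed, *Crtc1* and *Sik3* higher (32.5% of all genes) and *Crtc3* lower (31.7%), against 64.2% of 14507 genes. None of these 3 was a DEG, against 22.1% of all genes, and the same 3 had groups without overlap (60.2%). With PGE2 alone set against stimulation alone, 6 of 9 differed (71.5% of 14451 genes), with *Crem*, *Crtc3* and *Sik1* higher under PGE2 and *Atf1*, *Crtc1* and *Sik3* higher under stimulation. Called members thus stood near the share over all genes for stimulation without PGE2 and for PGE2 alone against stimulation alone, and under it for stimulation with PGE2. Upper-quartile scaling moved the median of all genes by −0.10 on the log2 scale for stimulation without PGE2 and by −0.13 for stimulation with PGE2. For PGE2 alone against stimulation alone it moved the median by 0.11, and the changes above are relative to TMM scaling.

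Whether the PGE2 effect differed between stimulated and unstimulated cells was tested directly over 15096 genes. None of the 9 genes passed (edgeR), against 0.749% of all genes, and 2 of 9 had an unadjusted p below 0.05, as 1415 genes had. These were *Sik3*, with an effect lower by 0.45 ± 0.12 on the log2 scale in stimulated cells (adjusted p 0.135, edgeR), and *Sik1*, lower by 0.40 ± 0.11 (adjusted p 0.136, edgeR). DESeq2 called 1 of 9, *Sik1*, at an adjusted p of 0.0473, and edgeR with the replicate block called 1 of 9, *Sik3*, at 0.0261.

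Upstream of these genes lie the receptors, cyclases, protein kinase A subunits and phosphodiesterases. Of 26 such genes tested, 7 rose and 6 fell with PGE2 in unstimulated cells, with a median log2 fold change of 0.06 against −0.00102 over all genes. In stimulated cells 5 rose and 2 fell of 25. These counts and those of the lists that follow stand against 12.9% of all genes higher and 15.5% lower with PGE2 in unstimulated cells, and 6.04% higher and 3.8% lower in stimulated cells, and no list was tested against these shares. The largest 3 rises in each state were of phosphodiesterases, which degrade cAMP. *Pde4d* went from 38.3, 39.0, 50.1 and 56.6 to 89.6, 86.8, 91.8 and 108 CPM in stimulated cells, a log2 fold change of 1.04 ± 0.13, and rose by 0.52 in unstimulated cells (adjusted p 0.00152 and 8.29e-04, edgeR). *Pde4b* rose by 0.98 and 0.45, and *Pde8a* by 0.95 and 1.00.

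The PGE2 receptor genes themselves moved too. *Ptger4*, the gene of EP4, fell with PGE2 in both states, from 32.3, 31.6, 34.4 and 35.1 to 23.8, 22.5, 20.4 and 22.2 CPM in unstimulated cells (log2 −0.57 ± 0.07) and from 123, 116, 109 and 94.1 to 72.5, 65.0, 53.2 and 43.8 CPM in stimulated cells (log2 −0.90 ± 0.15). *Ptger2*, the gene of EP2, changed in opposite directions. It rose from 6.44, 5.86, 6.67 and 5.63 to 8.15, 7.38, 7.71 and 7.56 CPM in unstimulated cells (log2 0.34, adjusted p 0.0269, edgeR) and fell from 34.0, 31.7, 25.8 and 22.9 to 16.6, 16.7, 14.6 and 13.3 CPM in stimulated cells (log2 −0.90, adjusted p 0.00291, edgeR). The difference of these effects, −1.23 ± 0.17, passed the test (adjusted p 0.00336, edgeR). *Akap1*, an anchor of protein kinase A at mitochondria, and *Prkar2a*, a regulatory subunit, fell in unstimulated cells by 1.44 and 0.55 on the log2 scale.

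Among kinases that phosphorylate CREB, 3 of 14 rose and 2 fell with PGE2 in unstimulated cells, and 1 rose and 1 fell in stimulated cells. The falls in unstimulated cells were near the 15.5% over all genes. *Camk4*, a calcium/calmodulin-dependent kinase of T cells, was the clearest, going from 163, 161, 164 and 169.7 to 383, 346, 347 and 318 CPM in unstimulated and from 92.2, 90.6, 118 and 116 to 200.5, 202, 228 and 226 CPM in stimulated cells. The groups were well apart in both states, with log2 fold changes of 1.10 ± 0.06 and 1.04 ± 0.11 (adjusted p 2.21e-06 and 4.16e-04, edgeR). *Rps6ka1*, which encodes a ribosomal S6 kinase, fell by 0.38 and 0.37 on the same scale, and *Prkaca*, a catalytic subunit of protein kinase A, rose by 0.29 in unstimulated cells. There *Rps6ka4*, a kinase of the MSK type, rose by 0.25 and *Akt1* fell by 0.24.

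The other CREB/ATF factors and the CREB-binding acetyltransferases gave 2 rises and no fall of 15 in unstimulated and 5 rises and no fall in stimulated cells. *Creb3l2*, a factor of the endoplasmic reticulum, rose by 0.92 and 0.91 on the log2 scale. *Ep300*, which encodes p300, rose by 0.29 and 0.37. *Crebl2* and *Crebrf* rose in stimulated cells, by 0.80 and 0.79, and had 0.17 and 0.23 in unstimulated cells, where neither passed the test.

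The class IIa histone deacetylases are, like the CRTCs, known substrates of the salt-inducible kinases, and they restrain MEF2 factors. Of 7 genes of this group tested, 4 rose with PGE2 in unstimulated cells and none fell, and 1 of 5 rose in stimulated cells. Of the 4 that rose, 1 was a DEG, which had a mean below 1 CPM and is not named for that reason. *Hdac4* rose in both, from 56.9, 49.3, 49.7 and 49.1 to 92.9, 85.1, 81.7 and 75.0 CPM in unstimulated cells (log2 0.73 ± 0.07, adjusted p 2.78e-05, edgeR) and by 0.28 in stimulated cells. *Hdac5* rose by 0.32 and *Mef2d* by 0.26 in unstimulated cells. With stimulation without PGE2, 5 of 6 were lower and none higher, where 34.8% of all genes were lower and 31.7% higher.

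LKB1 is the master kinase that activates the salt-inducible kinases and their relatives. Of 12 genes of this complex and of related kinases tested, 2 rose and 1 fell with PGE2 in unstimulated cells and 1 rose in stimulated cells, near the 28.4% and 9.84% called over all genes. *Mark4*, a relative of the salt-inducible kinases, rose by 0.47 and 0.36 on the log2 scale, *Stradb*, an LKB1 partner, rose by 0.28 in unstimulated cells and *Cab39l* fell by 0.26 there. Phosphatases that act on CRTCs and 14-3-3 proteins gave 1 rise and 4 falls of 22 in unstimulated and 1 rise and 1 fall in stimulated cells. The fall seen in both states was *Ppp3ca*, the calcineurin catalytic subunit that dephosphorylates CRTC2, at −0.55 ± 0.10 and −0.50 ± 0.08 on the log2 scale (adjusted p 0.00199 and 0.00353, edgeR), and the rise in both was *Sfn*, which encodes 14-3-3 sigma, at 0.29 and 0.35. Another calcineurin subunit gene, *Ppp3cc*, and *Ywhaq*, which encodes 14-3-3 theta, fell in unstimulated cells by 0.33 and 0.30.

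Downstream, a list of 45 known CREB target genes was tested, which shares *Pde3b*, *Pde4b* and *Pde4d* with the upstream list. With PGE2, 10 rose and 6 fell of 40 in unstimulated cells, and 7 rose and 4 fell of 41 in stimulated cells. Over all genes 12.9% were higher and 15.5% lower in unstimulated cells, with the share of targets that fell near that of all genes, and 6.04% were higher and 3.8% lower in stimulated cells. The median log2 fold changes were 0.13 and −0.03, against −0.00102 and −0.01 over all genes, and 24 and 30 genes did not pass the test. Stimulation without PGE2 raised 28 and lowered 8 of 40, against 31.7% and 34.8% of all genes, with a median of 0.97.

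Single targets differed widely. *Fosl2*, an AP-1 factor, went from 94.6, 104, 153 and 158 to 419, 358, 369.8 and 339 CPM in unstimulated cells (log2 1.56 ± 0.16) and rose by 0.72 in stimulated cells. *Rgs2*, a brake on G protein signalling, rose from 6.13, 6.29, 10.5 and 13.8 to 27.9, 29.7, 38.6 and 39.5 CPM in unstimulated cells, whereas in stimulated cells it stood at 49.2, 43.3, 42.7 and 46.1 without and 57.4, 51.5, 46.8 and 53.2 CPM with PGE2. *Irs2*, the insulin receptor substrate, rose by 1.05 and 1.08 on the log2 scale in the 2 states. *Klf4*, a Krüppel-like factor, rose by 1.43 in unstimulated cells, at a low level and with overlapping groups. It went there from 0.750, 0.866, 1.01 and 1.51 to 1.34, 1.77, 3.42 and 4.48 CPM.

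Other targets fell. The immediate early gene *Egr1* fell by 0.99 and 0.81 on the log2 scale in unstimulated and stimulated cells, and its relative *Egr2* fell by 1.04 in stimulated cells. *Hspa8*, a chaperone gene, fell by 0.33 in unstimulated cells. *Il2*, a gene on which CREB-family binding has been described, went from 159, 117, 79.4 and 49.9 CPM in stimulated untreated to 46.6, 31.4, 16.7 and 9.18 CPM in stimulated PGE2-treated cells (log2 −1.95 ± 0.47, adjusted p 0.0305, edgeR), without overlap. *Per2*, a clock gene, fell in unstimulated cells by 1.58 from a low level of 5.21 to 7.28 CPM, and *Klf2*, a factor of quiescent T cells, rose by 0.90 in stimulated cells, from 28.0 to 32.7 to 50.3 to 66.2 CPM.

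**Figure D4:**
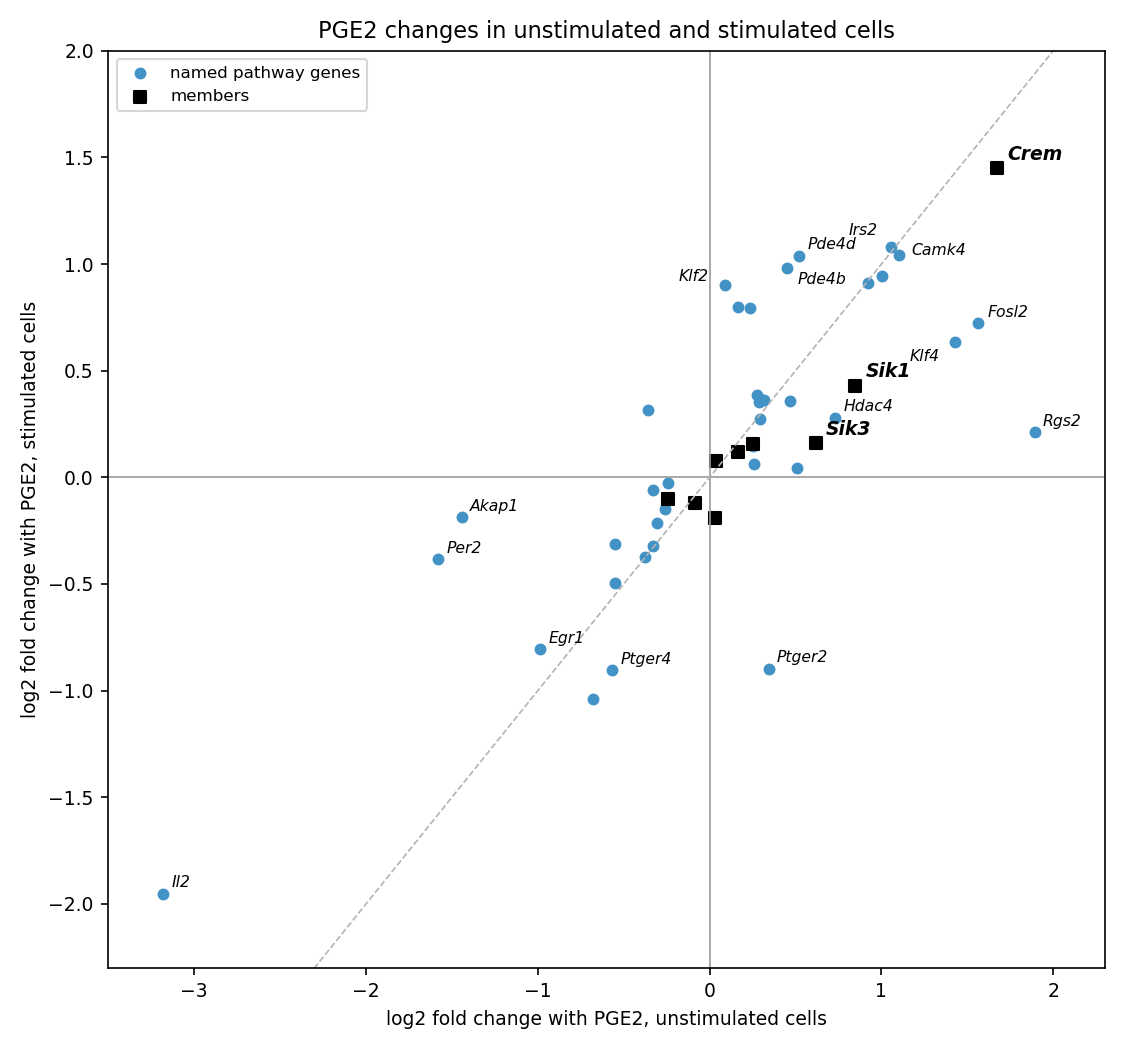
Log2 fold change with PGE2 in stimulated cells (vertical axis) against that in unstimulated cells (horizontal axis) for the 9 genes (black squares) and the pathway genes with the largest changes (blue points), with a dashed line of equality. *Crem*, *Camk4* and *Irs2* lie near the line, *Ptger2* is above 0 in unstimulated and below 0 in stimulated cells, and *Rgs2* and *Sik3* lie near 0 in stimulated cells only.

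RefSeq promoters were found for 35 of the 45 target genes. A full CRE stood in 4 of them, *Areg*, *Dusp1*, *Ldha* and *Maff*, and a short form in 24, and since the list was drawn from genes known as CREB targets, an excess of the element in it is no finding. Counted per promoter, 7.55% of 53 promoters of these genes held the full element against 1.55% of all promoters. *Dusp1*, which encodes a MAP kinase phosphatase, and *Areg*, which encodes amphiregulin, are shown around the element, which is in capitals, 5′ to 3′ on the strand of the gene (GRCm38.p6, *Dusp1* chr17:26508592-26508631 on the minus strand and *Areg* chr5:91139522-91139561 on the plus strand).
Dusp1: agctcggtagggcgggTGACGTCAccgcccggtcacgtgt
Areg: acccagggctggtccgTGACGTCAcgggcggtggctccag
Of these 4 genes, which are named here for the element, *Dusp1* was the one that passed the test with PGE2. *Dusp1* rose with PGE2 in unstimulated cells by 0.49 ± 0.11 on the log2 scale (adjusted p 0.00608, edgeR) and had 0.06 in stimulated cells. *Ldha* and *Maff* had 0.13 and 0.27 in unstimulated and 0.10 and −0.17 in stimulated cells, none of which passed the test. *Areg* was below the filter in unstimulated cells and had 1.29 ± 0.40 in stimulated cells (adjusted p 0.0684, edgeR) at a mean below 1 CPM.

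Over the 16 samples, the genes whose log2 CPM ran most like that of *Crem* among 12252 genes were *Gng4* (Pearson r = 0.98), *Tsc22d1* (0.96), *Ecm1* (0.96), *Mxd1* (0.96) and *Foxj1* (0.95). *Gng4*, a G protein gamma subunit, was at 0.573, 0.866, 1.66 and 1.78 CPM in unstimulated untreated and 7.84, 8.39, 7.88 and 7.41 CPM in unstimulated PGE2-treated cells. In stimulated cells it was at 0.926, 0.955, 2.06 and 2.70 without and 6.65, 6.07, 8.20 and 7.73 CPM with PGE2, the same high and low groups as for *Crem*. For *Sik1* the genes were *Kdm2b* (0.97), *Sult2b1* (0.96), *Fosl2* (0.95), *Gm12397* (0.95) and *Plaur* (0.94). *Crem* and *Sik1* had r = 0.89 with each other, and *Sik1* ranked 39 of 12252 genes in likeness to *Crem*. The coefficients of *Crem* with *Creb1*, *Atf1* and *Sik3* were −0.65, −0.29 and 0.38. These are descriptions over samples that fall into 4 groups and carry no test.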

How the data were processed

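Poly(A) libraries of 16 samples were sequenced as read pairs. Per the authors, reads were aligned to GRCm38 (mm10) with HISAT2 2.0.5, and the deposited counts per gene came from featureCounts 1.5.0-p3. The deposited FPKM values were made by the authors from those counts and the gene length. The annotation release, the strand setting and the treatment of reads with several matches are not given in the sources used here.

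Members were taken by gene name from the count table. The members and gene lists were chosen with earlier results of these data known. Each comparison used only its own 8 samples (16 for the difference of PGE2 effects), with edgeR 4.0.16 in R 4.3.3: filterByExpr with a minimum count of 10, TMM factors (0.880 to 1.09), a quasi-likelihood test and Benjamini-Hochberg adjustment over all genes tested. A gene with an adjusted p below 0.05 changed, and a DEG also had a fold change of at least 2. CPM are counts scaled to library size with the TMM factors.

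Same-numbered replicates deviated together in each of the 4 pairs, with r of 0.137 to 0.444 for PGE2 in unstimulated cells, 0.190 to 0.423 for PGE2 in stimulated cells and 0.112 to 0.359 for stimulation without PGE2. Over all groups, 21 of 24 same-numbered pairs had an r above 0.1 (median 0.242). Of 72 pairs with different numbers, 10 did so as well (median −0.0817, highest 0.250). Untreated replicate 1 of the stimulated cells had r = 0.247 with PGE2-treated replicate 2, against 0.190 for the replicate 2 pair. Some replicates with different numbers thus also deviated together. The numbers come from the labels, which do not say what they mark. The block is reported where it changed a call.

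All 9 members are given. From each pathway list the text takes up to 3 largest rises and 3 largest falls among genes that changed with PGE2 (mean 1 CPM or more), besides those whose PGE2 effects differed. For likeness, the 5 genes with the highest correlation of log2 CPM (prior count 2) are given. Genes sharing exon bases were found with GENCODE M21, and promoters came from RefSeq (GRCm38.p6). Alternatives were DESeq2 1.42.0, RLE and upper-quartile factors, other filters, limma 3.58.1 on log2(FPKM + 1) or log2(FPKM + 0.1), the replicate block, 1 fit of all 16 samples, a threshold of 0.01 and each sample left out. The fits were tested on simulated counts with large fold changes, a common dispersion and no replicate effect. That simulation does not cover the smaller changes of most members or replicates that deviate together.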

Additional observations from a re-analysis of the deposited data

Results flagged for a closer look

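In 3 of the 36 groups of 4 samples, 9 genes in 4 groups, 1 sample stood apart from the others by Dixon's criterion, of which chance gives about 1 in 20. *Creb1* in stimulated PGE2-treated cells was at 114 CPM in replicate 4, against 96.9 to 99.4 in the other 3. *Sik2* in the same group was at 11.6 CPM in replicate 2, against 10.3 to 10.5. *Sik3* in unstimulated PGE2-treated cells was at 124 CPM in replicate 1, against 111 to 112. The *Sik3* call with PGE2 in unstimulated cells held without each of the 8 samples in turn.

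None of the 9 genes, and 7 of the pathway genes, had a PGE2 effect that differed between stimulated and unstimulated cells (log2 effect in stimulated minus that in unstimulated cells, edgeR test of the difference, adjusted over 15096 genes). The difference was −1.23 for *Ptger2* (adjusted p 0.00336), 0.69 for *Adcy6* (0.0479), an adenylyl cyclase, and 1.27 for *Akap1* (0.0271). Among the CREB targets it was −1.67 for *Rgs2* (0.00624), 1.20 for *Per2* (0.0315), −0.45 for *Per1* (0.0125) and 0.83 for *Klf2* (0.0391). *Ptger2*, *Rgs2* and *Per1* had the more negative effect in stimulated cells, and the other 4 genes the more positive one.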

How the results depend on the processing

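Over all alternatives, 981 values of single members kept their direction and their side of the threshold, 11 passed the threshold newly, 9 no longer passed it and 32 changed sign, each of the last with a log2 value that did not pass the test in the main analysis. With the replicate block, 4 members changed with PGE2 in stimulated cells in place of 2, and 1 in place of 0 in the test of the difference of PGE2 effects, where DESeq2 also gave 1. For the stimulation effect with PGE2 and for PGE2 alone against stimulation alone, 2 and 3 of 4 same-numbered pairs correlated above 0.1. Their r was 0.0439 to 0.281 and 0.0727 to 0.343, so this does not show that those samples are unpaired. The block moved no count of members there by more than 1.5 times. The block changed the call of no member beyond those given with it. Leaving out each sample in turn gave 3 to 5 members changed with PGE2 in unstimulated cells and no other count of changed members moved.

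Signs turned for values near 0. With upper-quartile scaling, stimulation without PGE2 gave *Crtc2* −0.0364 and *Sik2* −0.0728, and stimulation with PGE2 gave *Crtc2* −0.0718 and *Sik1* −0.0735. With no filter on low counts, *Crtc2* had −0.0011 for stimulation with PGE2. *Creb1* for PGE2 alone against stimulation alone had −0.0174 with DESeq2, −0.0169 with RLE factors, −0.0085 with at least 10 counts in every sample and −0.0097 in the fit of all 16 samples. Upper-quartile scaling also took *Atf1* over the threshold in that comparison (adjusted p 0.0512, edgeR), brought *Crtc2* (0.0121) and *Sik2* (0.0229) under it, and brought *Creb1* under it for stimulation with PGE2 (0.0466). The cause was not tested.

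Leaving out single samples turned the sign within these log2 ranges. *Crtc3* with PGE2 in unstimulated cells ranged from −0.0105 to 0.0851, and *Sik2* with stimulation without PGE2 from −0.0433 to 0.0788. With stimulation in the presence of PGE2, *Crem* ranged from −0.115 to 0.0260, *Crtc2* from −0.0170 to 0.105 and *Sik2* from −0.152 to 0.0040. *Creb1* for PGE2 alone against stimulation alone ranged from −0.0491 to 0.0629. For the difference of PGE2 effects, *Crtc1* ranged from −0.128 to 0.0680, *Crtc2* from −0.0890 to 0.0238 and *Crtc3* from −0.0089 to 0.107.

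Counts over all genes moved more than those of the members. With PGE2 in unstimulated cells 4122 genes changed, and 6938 with the block. In stimulated cells 1370 changed, against 5544 with the block, 2161 in the fit of all 16 samples, 2066 with DESeq2 and 679 with limma on log2(FPKM + 1) without a filter, and between 630 (without stimulated untreated replicate 2) and 1854 (without stimulated PGE2-treated replicate 1) with a sample left out. The difference of PGE2 effects gave 113 genes, 234 with DESeq2, 408 with the block, 37 to 53 with limma and 44 to 217 with a sample left out. DEG counts were lowest with limma on log2(FPKM + 1). Without a filter it gave 113 against 490 for PGE2 in unstimulated and 49 against 243 in stimulated cells, and with the filter on mean FPKM 1605 against 3301, 1583 against 3210 and 2411 against 4670 in the other pairwise comparisons. These settings differ from the main analysis in method, scale and filter together, and the cause was not tested. For the difference of effects, DEGs were 35, and 6 to 60 with other settings or 18 to 72 with a sample left out.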
